A study of Mus musculus with 8 samples.

Results

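Acetylation of lysine 9 on histone H3 (H3K9ac), a mark of active promoters and enhancers, was described at 10 immediate early and AP-1 genes, namely Fos, Fosb, Jun, Junb, Jund, Egr1, Egr2, Egr3, Ier2 and Atf3. They were chosen by name among 21938 protein-coding genes, and all peaks within 1 kb of any transcription start site (TSS) or within 20 kb of the gene were taken from the list of each library. ChIP-seq had been performed in frozen whole bone marrow (BM) cells of C57BL/6 mice that all carried the NUP98-HOXD13 transgene, a fusion gene used as a model of myelodysplastic syndrome. GFI1-36S mice carry a human GFI1 cDNA with serine at the variable position in the murine locus, GFI1-36N mice carry the asparagine form, and GFI1-KD mice express less GFI1. For each genotype there was 1 library from mice given curcumin, a natural histone acetyltransferase inhibitor injected weekly at 20 mg/kg, and 1 from mice given vehicle (DMSO). The labels give neither the age of the mice nor how many gave cells to a library. They name whole marrow, whereas the study's text in 1 place speaks of c-kit+ cells.

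Each group is a single library, so the differences below rest on no replicates and carry no p-values. The lists held between 20354 and 49213 peaks. Of the 6 libraries, that of GFI1-36S mice treated with curcumin stood apart. All 14 T-cell marker genes had a promoter peak there, with a summed rank (the 0 to 100 scale is explained below) of 774 against 34.4 to 114 in the other libraries, none of 15 neutrophil markers had one, and the summed rank of 8 monocyte and macrophage markers was 15.3 against 255 to 354 elsewhere. For GFI1-36S, the treatments in the names of the deposited lists are the reverse of those in the labels. The labels were followed, and an exchange turns every GFI1-36S difference between curcumin and vehicle around. For GFI1-36N, the list names describe the vehicle mouse as heterozygous and the curcumin mouse as homozygous, which the labels do not, so that treatment and zygosity cannot be told apart there. The Gfi1 promoter itself had a peak in every library, at ranks between 34.4 and 77.6, with the highest in the GFI1-36S curcumin library.

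Immediate early genes are transcribed within minutes of a growth factor, cytokine or stress signal and need no new protein synthesis for it, since the factors that act on them are already bound or waiting in the cell. Their promoters are kept open and are read by serum response factor with its ETS partners, by CREB and by NF-kB. FOS and JUN proteins form the dimers known as AP-1, the EGR proteins are zinc finger factors, and in the marrow both families take part in monocyte and macrophage differentiation and in the response of blood cells to cytokines.

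Promoter sequence upstream of the TSS was found for 7 of the 10 members in the RefSeq table (GRCm38.p6), and Egr1, Egr3 and Ier2 had no entry. The 6 sequences below are the 250 bases upstream of a TSS, shown because the H3K9ac peaks of these members lie over or beside them and because the letters that signal-dependent factors read differ between them. Capitals mark exact matches, on either strand, to the CArG box of serum response factor, the cAMP response element TGACGTCA or its core TGACGT, the AP-1 site TGACTCA or TGAGTCA, the EGR site GCGGGGGCG or GCGTGGGCG, the NF-kB site and TATAAA. The Fos window is chr12:85473640-85473889 on the plus strand, Fosb chr7:19310046-19310295 on the minus strand, Egr2 chr10:67537316-67537565 on the plus strand, Atf3 chr1:191183334-191183583, Jun chr4:95052223-95052472 and Junb chr8:84978749-84978998, the last 3 on the minus strand.
Fos: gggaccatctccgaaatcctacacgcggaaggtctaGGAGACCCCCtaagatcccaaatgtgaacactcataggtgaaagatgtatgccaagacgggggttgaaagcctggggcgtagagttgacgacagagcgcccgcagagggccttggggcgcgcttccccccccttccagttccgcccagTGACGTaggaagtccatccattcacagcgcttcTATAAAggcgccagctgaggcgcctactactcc
Fosb: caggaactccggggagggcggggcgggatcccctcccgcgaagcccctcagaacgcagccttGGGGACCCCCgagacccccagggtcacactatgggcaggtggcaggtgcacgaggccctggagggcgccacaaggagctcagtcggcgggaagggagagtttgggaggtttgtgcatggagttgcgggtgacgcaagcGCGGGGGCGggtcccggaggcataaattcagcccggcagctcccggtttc
Egr2: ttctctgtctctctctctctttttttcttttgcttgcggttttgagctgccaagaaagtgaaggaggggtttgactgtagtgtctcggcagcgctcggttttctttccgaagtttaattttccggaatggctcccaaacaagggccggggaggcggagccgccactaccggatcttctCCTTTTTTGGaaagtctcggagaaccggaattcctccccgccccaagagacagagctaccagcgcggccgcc
Atf3: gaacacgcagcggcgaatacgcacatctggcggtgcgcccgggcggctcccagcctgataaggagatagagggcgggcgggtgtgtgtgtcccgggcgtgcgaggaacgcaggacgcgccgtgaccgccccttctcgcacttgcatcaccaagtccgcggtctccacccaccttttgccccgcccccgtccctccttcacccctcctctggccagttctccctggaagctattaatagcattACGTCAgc
Jun: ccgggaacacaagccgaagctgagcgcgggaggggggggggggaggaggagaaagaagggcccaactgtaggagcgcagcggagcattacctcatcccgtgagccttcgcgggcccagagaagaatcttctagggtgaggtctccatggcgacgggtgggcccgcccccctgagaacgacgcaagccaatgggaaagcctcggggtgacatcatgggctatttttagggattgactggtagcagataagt
Junb: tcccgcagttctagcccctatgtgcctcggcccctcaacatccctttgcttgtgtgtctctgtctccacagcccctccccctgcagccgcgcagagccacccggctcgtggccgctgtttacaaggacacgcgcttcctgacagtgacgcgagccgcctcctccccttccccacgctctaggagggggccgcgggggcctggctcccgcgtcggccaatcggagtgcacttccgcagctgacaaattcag

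The Fos window held TATAAA at positions −33 to −28 from the TSS, the CRE core at −66 to −61 and an NF-kB match at −214 to −205. Among 21263 upstream windows of protein-coding genes in the same table, 11.6% held TATAAA, 7.37% the CRE core and 7.91% an NF-kB match. In Fosb, whose product pairs with JUN proteins like FOS does, an EGR site lay at −50 to −42, a motif of 4.06% of the windows, and an NF-kB match at −188 to −179. Of the 7 members matched, Egr2 was the one with CArG boxes, which 1.39% of the windows held: CCTTTTTTGG lay at −72 to −63 from the TSS at 67537566, and CCATATATGG at −72 to −63 from the TSS at 67537869. The same Egr2 promoter held the CRE core at −56 to −51 from the latter TSS. Atf3 held the CRE core at −8 to −3 from its TSS, read on the opposite strand. None of these letters occurred in the windows of Jun and Junb. The Jund window of the table, also without a match, belongs to a TSS 1210 bp from the one its peaks were measured at. No window held the complete CRE or AP-1 letters, which 1.92% and 4.06% of all windows held. The CRE core overlaps the complete CRE and was added after the sequences had been read. A match is a description of letters and not a bound site.

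Most members had a promoter peak in every library. Ranks express how strong such a peak was: the fold enrichment of the strongest promoter peak of a gene was placed among all promoter peaks of its list, with 100 for the strongest and 0 for no peak, so that lists of unequal depth can be set side by side. A promoter peak was present at 9 members in GFI1-36S vehicle, 8 in GFI1-36S curcumin, 10 in GFI1-36N vehicle and 9 in each of the other 3 libraries. Jun, Junb, Jund, Fos, Fosb, Egr1, Egr2 and Ier2 had one in all 6. Atf3 lacked it in GFI1-36S curcumin alone, and Egr3 had one in GFI1-36N vehicle alone. Of all 21938 protein-coding genes, between 9726 (GFI1-36S curcumin) and 11801 (GFI1-36N curcumin) had a promoter peak in a library, and 9341 had one in all 6. Among all genes with a promoter peak in either library of a pair, 16.2% had it with vehicle alone in GFI1-36S, 1.84% in GFI1-36N and 6.73% in GFI1-KD.

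**Figure D1:**
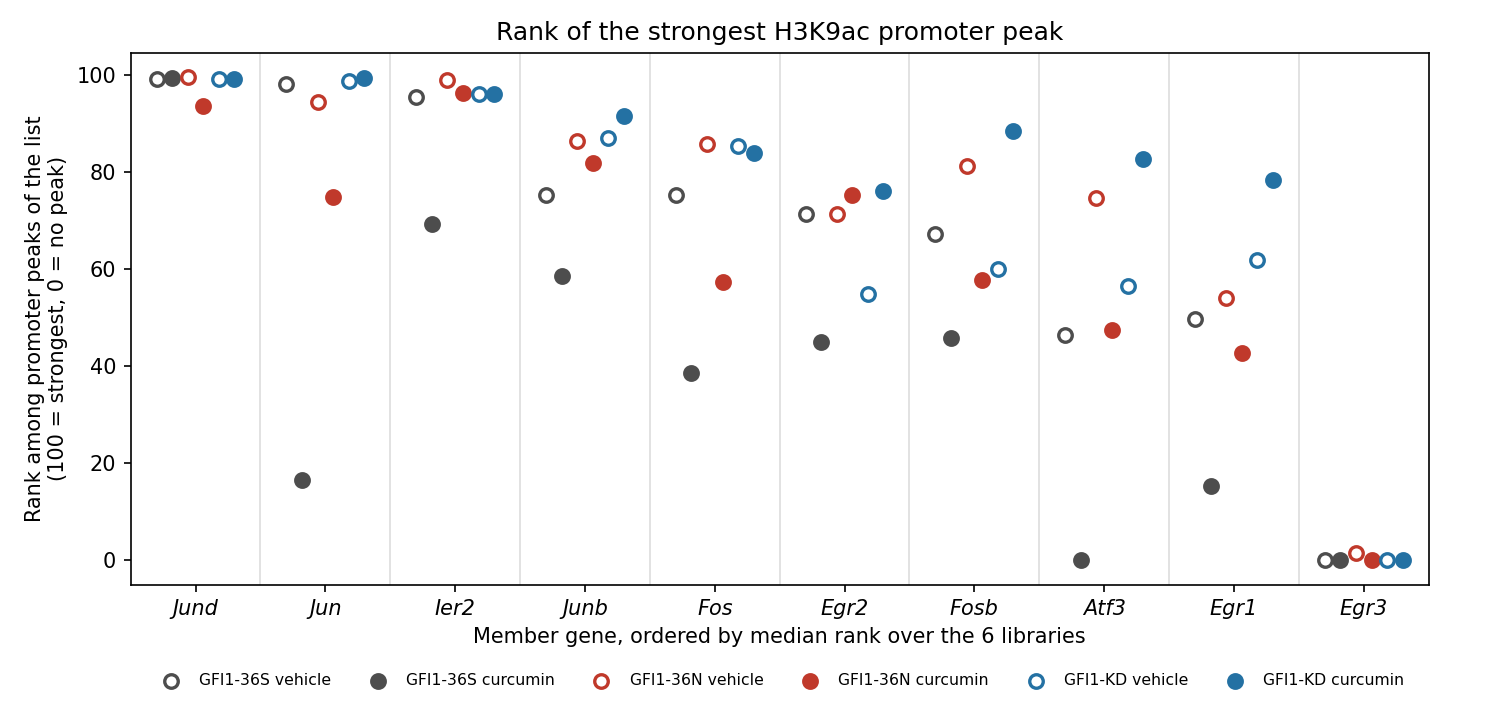
Rank of the strongest H3K9ac promoter peak (vertical axis, 0 to 100, 0 for no peak) for each of the 10 members in each of the 6 libraries, 1 point per library, open for vehicle and filled for curcumin. Jund stays at the top in every library, whereas Jun spans 16.6 to 99.4 and the GFI1-36S curcumin point is the lowest for Jun, Ier2, Junb, Fos, Egr2, Fosb, Atf3 and Egr1.

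Jund was among the strongest H3K9ac promoters of the marrow in every library. Ier2 was so in all but GFI1-36S curcumin, and Jun in all but the GFI1-36S and GFI1-36N curcumin libraries. Jund (ENSMUSG00000071076, chr8:70698949-70700616), the JUN protein that most resting cells express, ranked 99.2 and 99.4 in GFI1-36S vehicle and curcumin, 99.6 and 93.7 in GFI1-36N, then 99.3 and 99.3 in GFI1-KD. It was thus at 93.7 or above in all 6 libraries. Jun (ENSMUSG00000052684, chr4:95049034-95052222), the archetypal AP-1 subunit, ranked 98.3 and 16.6, 94.6 and 74.96, and 98.8 and 99.4 in the same order. Ier2 (ENSMUSG00000053560, chr8:84661331-84662852), a small nuclear protein induced by serum, ranked 95.5 and 69.4, 99.2 and 96.3, and 96.2 and 96.2. Outside the GFI1-36S curcumin library the lowest rank of Ier2 was 95.5, and of Jun 74.96. Junb (ENSMUSG00000052837, chr8:84974484-84978718), which restrains the expansion of myeloid progenitors, followed with 75.3 and 58.7, 86.5 and 81.9, and 87.1 and 91.7.

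The FOS genes, the EGR genes and Atf3 had lower median ranks. Fos (ENSMUSG00000021250, chr12:85473890-85477273) ranked 75.4 and 38.7 in GFI1-36S vehicle and curcumin, 85.9 and 57.5 in GFI1-36N, then 85.5 and 84.0 in GFI1-KD. Fosb (ENSMUSG00000003545, chr7:19302696-19310051) ranked 67.2 and 46.0, 81.3 and 57.9, and 60.0 and 88.5. Both genes had their highest curcumin rank in GFI1-KD and their lowest in GFI1-36S. Egr2 (ENSMUSG00000037868, chr10:67535475-67542188), a factor of macrophages and of myelinating cells, ranked 71.5 and 45.0, 71.5 and 75.4, and 55.0 and 76.2. Egr1 (ENSMUSG00000038418, chr18:34859823-34864984), which favours the macrophage fate in myeloid cells, ranked 49.8 and 15.3, 54.1 and 42.8, and 62.0 and 78.4. Atf3 (ENSMUSG00000026628, chr1:191170296-191218039), a stress-induced partner of JUN that can repress transcription, ranked 46.6 and 0, 74.7 and 47.6, and 56.6 and 82.8.

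The median rank over the 6 libraries ordered the members as Jund (99.3), Jun (96.4), Ier2 (96.2), Junb (84.2), Fos (79.7), Egr2 (71.5), Fosb (63.6), Atf3 (52.1), Egr1 (52.0) and Egr3 (0). The ranges of neighbours in this order overlapped from Jund and Jun down to Atf3 and Egr1, and that of Egr3, from 0 to 1.496, lay within that of Atf3, which has 0 for the library without a peak. Without the GFI1-36S curcumin library, an alternative chosen after seeing the data, the lowest rank of Jun went from 16.6 to 74.96 and that of Egr1 from 15.3 to 42.8, while that of Jund stayed at 93.7. For the genes that had a promoter peak in a library, the median rank was between 59.3 and 63.2, and the median of the members with a peak was 75.3, 45.5, 83.6, 74.96, 85.5 and 88.5 in the 6 libraries in the order above. Only in GFI1-36S curcumin was it below the median over all genes.

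Egr3 (ENSMUSG00000033730, chr14:70077203-70082614), an EGR factor best known in lymphocytes and muscle spindles, was the member without H3K9ac at the TSS. Its peak in GFI1-36N vehicle was 246 bp wide, ranked 1.496, held 19 fragments at the summit (exact Poisson 95% interval 11.4 to 29.7, counting error only) and did not reach the TSS. In the other libraries the nearest peak began between 1284 and 1941 bp from a TSS, with a fold enrichment between 3.55 and 10.3. These peaks belong to a site centred 2.04 kb upstream that was listed in all 6 libraries. Egr4, the remaining member of the EGR family, had no promoter peak in any library.

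The depth behind these ranks was moderate. Since the fold enrichment and p of MACS2 derive from whole fragments at the summit, those fragments could be recovered for 100% of the listed peaks. Members with a peak held a median of 144, 51.5, 169, 146, 235 and 178 fragments at the summit in the 6 libraries. Fos, for example, was represented by 163 fragments (139 to 190) in GFI1-36S vehicle and by 45 (32.8 to 60.2) in GFI1-36S curcumin, and Jun by 225 (197 to 256) and 26 (17.0 to 38.1). Counting error therefore does not reach the size of these 2 differences, but it says nothing of the spread between mice. Summits of Fos lay between −205 and 330 bp from the TSS, those of Fosb between −164 and −115 bp, and those of Egr2 between −250 and −205 bp from the TSS at 67537869, in or near the sequences printed above.

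To see how the members differed between curcumin and vehicle, ranks were subtracted within each genotype, and a difference of at least 10 points was counted. In GFI1-36S mice, 8 of the 9 members with a peak ranked at least 10 points lower with curcumin and none ranked 10 points higher. Over all genes with a promoter peak in this pair, 41.8% were lower and 14.3% were higher by as much. Jund (99.2), Jun (98.3) and Ier2 (95.5) ranked too high with vehicle to rise by 10 points. The median difference was −26.5 for the members and −6.55 for all genes. Jun differed most, by −81.7 points, followed by Atf3 with −46.6, Fos with −36.7, Egr1 with −34.5, Egr2 with −26.5, Ier2 with −26.1, Fosb with −21.3 and Junb with −16.6. Jund, at 0.16, was the exception. For Junb the strongest promoter peak was not the same one in both libraries: with vehicle it was the upstream peak, at −2755 to −157 bp from the TSS with a fold enrichment of 24.4, and with curcumin the one over the gene, at −12 to 1982 bp with 11.7, where vehicle had 19.4. The summit height of Jun, in units of the genome background of its library, was 0.121 times that with vehicle (exact binomial 95% interval 0.0775 to 0.182, counting error only), and that of Fos 0.290 times (0.204 to 0.405), where the median over all genes with a peak in both libraries was 0.583 times. Of the 8 members with a peak in both, Junb at 0.598 times and Jund at 0.748 times were above that median and the other 6 below.

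This pair contains the library that stood apart. Of the 8 monocyte and macrophage markers, 8 had a promoter peak with vehicle and 1 (Irf8) with curcumin. Their summed rank was 255 and 15.3, that of the 10 progenitor markers 532 and 107, and that of the 14 T-cell markers 100 and 774. Kit, Cd34, Csf1r and Mpo had no promoter peak in the curcumin library. Of the 10 progenitor markers, 2 had one there. They were Flt3, which ranked 29.7 with vehicle and 13.6 with curcumin, and Myb, which ranked higher with curcumin (78.8 and 93.1). The part of cell composition in the lower ranks of the immediate early genes was not tested, and fewer cells of a type and less acetylation per cell cannot be told apart in whole marrow.

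**Figure D2:**
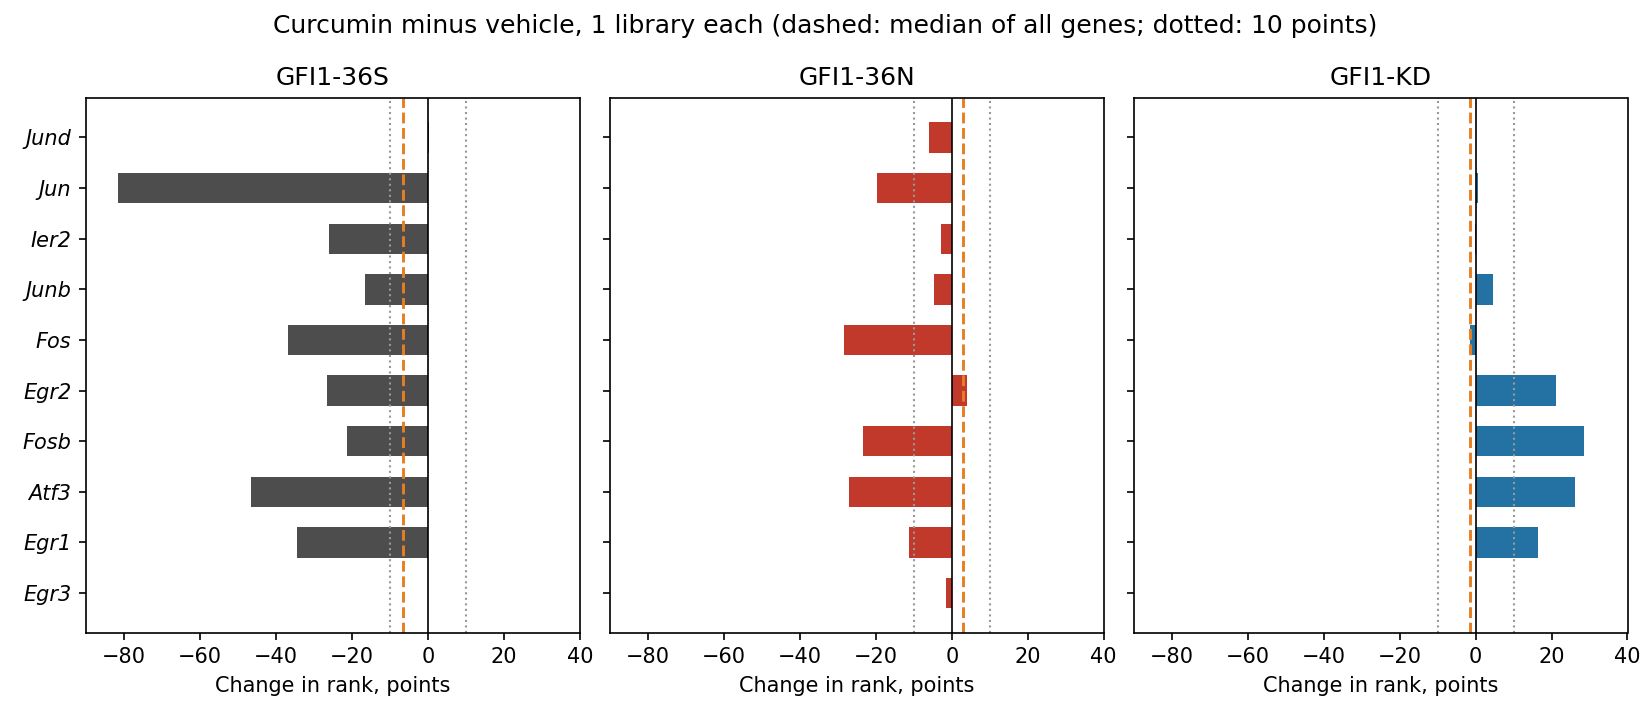
Difference in promoter rank between curcumin and vehicle (horizontal axis, points) for each member in GFI1-36S, GFI1-36N and GFI1-KD, 1 library each side, with the dashed line at the median of all protein-coding genes with a peak and dotted lines at 10 points. The bars of GFI1-36S and GFI1-36N point mostly to lower ranks and those of GFI1-KD to higher ranks.

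In GFI1-36N mice, the members ranked lower with curcumin while most genes ranked higher. Of the 10 members, 5 were lower by at least 10 points and none was higher, where 8.52% of all genes were lower and 22.9% higher. With vehicle, Jund (99.6), Ier2 (99.2) and Jun (94.6) ranked too high to rise by 10 points, and Egr3 (1.496) too low to fall by 10. The shares over all genes are not matched for the rank with vehicle. The median was −8.63 for the members and 2.83 for all genes. Fos differed by −28.4, Atf3 by −27.1, Fosb by −23.3, Jun by −19.6 and Egr1 by −11.3 points. The other 5 stayed within 10 points: Jund with −5.98, Junb with −4.61, Ier2 with −2.86, Egr3 with −1.496 and Egr2 with 3.99. The summit height of Fos was 0.781 times that with vehicle (0.610 to 0.996), of Jun 0.817 times (0.669 to 0.997) and of Atf3 0.753 times (0.573 to 0.985), whereas the median over all genes was 1.24 times. The intervals of Fosb (0.667 to 1.10) and Egr1 (0.675 to 1.23) included 1. In the same pair the summed rank of the monocyte and macrophage markers was 348 with vehicle and 261 with curcumin, with 8 and 7 of 8 markers having a peak. Of these 8 markers, 6 ranked lower with curcumin and 2 higher. The neutrophil markers had 297 and 397, the progenitor markers 444 and 520, the erythroid markers 177 and 232 and the T-cell markers 114 and 95.7. Whether these markers' cell types had a part in the lower ranks was not tested. Treatment and the zygosity in the list names cannot be told apart in this pair. For Egr1, the difference was −9.62 with TSSs of all biotypes and −5.23 with a window of 3 kb, both under 10 points.

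In GFI1-KD mice the differences ran the other way. Of 9 members with a peak, 4 ranked at least 10 points higher with curcumin and none as much lower, against 10.4% higher and 18.1% lower over all genes. The median was 4.60 for the members and −1.39 for all genes. Fosb differed by 28.4, Atf3 by 26.2, Egr2 by 21.2 and Egr1 by 16.3 points. Junb differed by 4.60 points, and Fos, Jun, Jund and Ier2 differed by less than 2 points, 3 of them at ranks above 95 in both libraries. The summit height was 1.36 times that with vehicle for Fosb (1.09 to 1.70) and 1.33 times for Atf3 (1.07 to 1.66), where the median over all genes was 0.885 times. For Egr2 the ratio was 1.23 (0.971 to 1.56) and for Egr1 1.13 (0.897 to 1.41), both within counting error of 1 though above the median over all genes. With curcumin all 9 members ranked above 75, with vehicle 5 did. The median rank over all genes with a promoter peak was 60.8 with curcumin and 59.3 with vehicle. How many of all genes ranked above 75 was not counted. The monocyte and macrophage markers had a summed rank of 278 with vehicle and 354 with curcumin, with 8 of 8 peaks in both. Of these 8 markers, 6 ranked higher with curcumin and 2 lower. The progenitor markers had 368 and 422, the T-cell markers 34.4 and 55.3, the erythroid markers 359 and 145 and the neutrophil markers 508 and 241. The part of these markers' cell types in the higher ranks was not tested.

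Read across the 3 genotypes, Fosb, Atf3 and Egr1 were lower by at least 10 points with curcumin in GFI1-36S and GFI1-36N and higher by at least 10 points in GFI1-KD. In summit height, the intervals of Fosb and Egr1 in GFI1-36N and of Egr1 in GFI1-KD included 1, as given above. Fos and Jun were lower in GFI1-36S and GFI1-36N and within 2 points in GFI1-KD. Egr2 was lower in GFI1-36S, higher in GFI1-KD and within 10 points in GFI1-36N. Jund was within 10 points in all 3, and Junb and Ier2 were lower by as much in GFI1-36S alone. The GFI1-36S difference of Junb was −7.45 with ranks by −log10 p and −0.54 with the summit required inside the window, a setting under which Jund, whose curcumin summits lie more than 1 kb from the TSS, came to −99.6 in GFI1-36N and −99.3 in GFI1-KD. Differences between the genotypes in these effects could not be tested.

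The vehicle libraries ask how the GFI1 form bears on the members without curcumin. Both comparisons share the GFI1-36S library, and both depend on which GFI1-36S list is that of vehicle. From GFI1-36S to GFI1-36N, Fos was higher by 10.5, Fosb by 14.03, Junb by 11.2 and Atf3 by 28.1 points, 4 members in all and none lower by 10, where 13.9% of all genes were higher and 18.8% lower by as much. The median of the members was 3.95 and that of all genes −1.48. The intervals of the summit height ratio of these 4 members all included 1. Ratios were 0.883 for Fos (0.709 to 1.10), 1.03 for Fosb (0.815 to 1.31) and 1.01 for Junb (0.807 to 1.27). For Atf3 the ratio was 1.29 (0.987 to 1.685), and its interval alone excluded the median over all genes, 0.817 times. For Junb the strongest promoter peak was not the same one in these libraries. In GFI1-36S it was the upstream peak, with a fold enrichment of 24.4 against 19.4 over the gene. In GFI1-36N it was the peak over the gene, with 25.7 against 20.3 upstream. In GFI1-KD a single peak with 33.1 covered both. The list name describes the GFI1-36N vehicle mouse as heterozygous. From GFI1-36S to GFI1-KD, Fos was higher by 10.1, Junb by 11.8, Egr1 by 12.2 and Atf3 by 10.02 points, and Egr2 was lower by 16.4, against 12.4% of all genes higher and 14.5% lower. Here the medians were 0.78 and −0.80. Summit height ratios were 1.137 for Fos (0.927 to 1.397) and 0.847 for Egr2 (0.666 to 1.078), with intervals that included 1. Intervals lay above 1 for Junb (ratio 1.32, 1.0695 to 1.634), Egr1 (1.385, 1.068 to 1.803) and Atf3 (1.368, 1.055 to 1.782). The intervals of all these members included the median over all genes, 1.076 times. With the GFI1-36S treatments exchanged, the median of the members was 32.6 for GFI1-36N and 28.4 for GFI1-KD, and Jun, at −3.66 and 0.53 as labelled, was higher by 78.0 and 82.2 points. With ranks by −log10 p, the values of Fos were 6.15 and 4.82, under 10 points. The monocyte and macrophage markers had summed ranks of 255, 348 and 278 in the GFI1-36S, GFI1-36N and GFI1-KD vehicle libraries. In the same order the progenitor markers had 532, 444 and 368, the erythroid markers 339, 177 and 359 and the neutrophil markers 420, 297 and 508. The part of these markers' cell types in the differences was not tested.

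**Figure D3:**
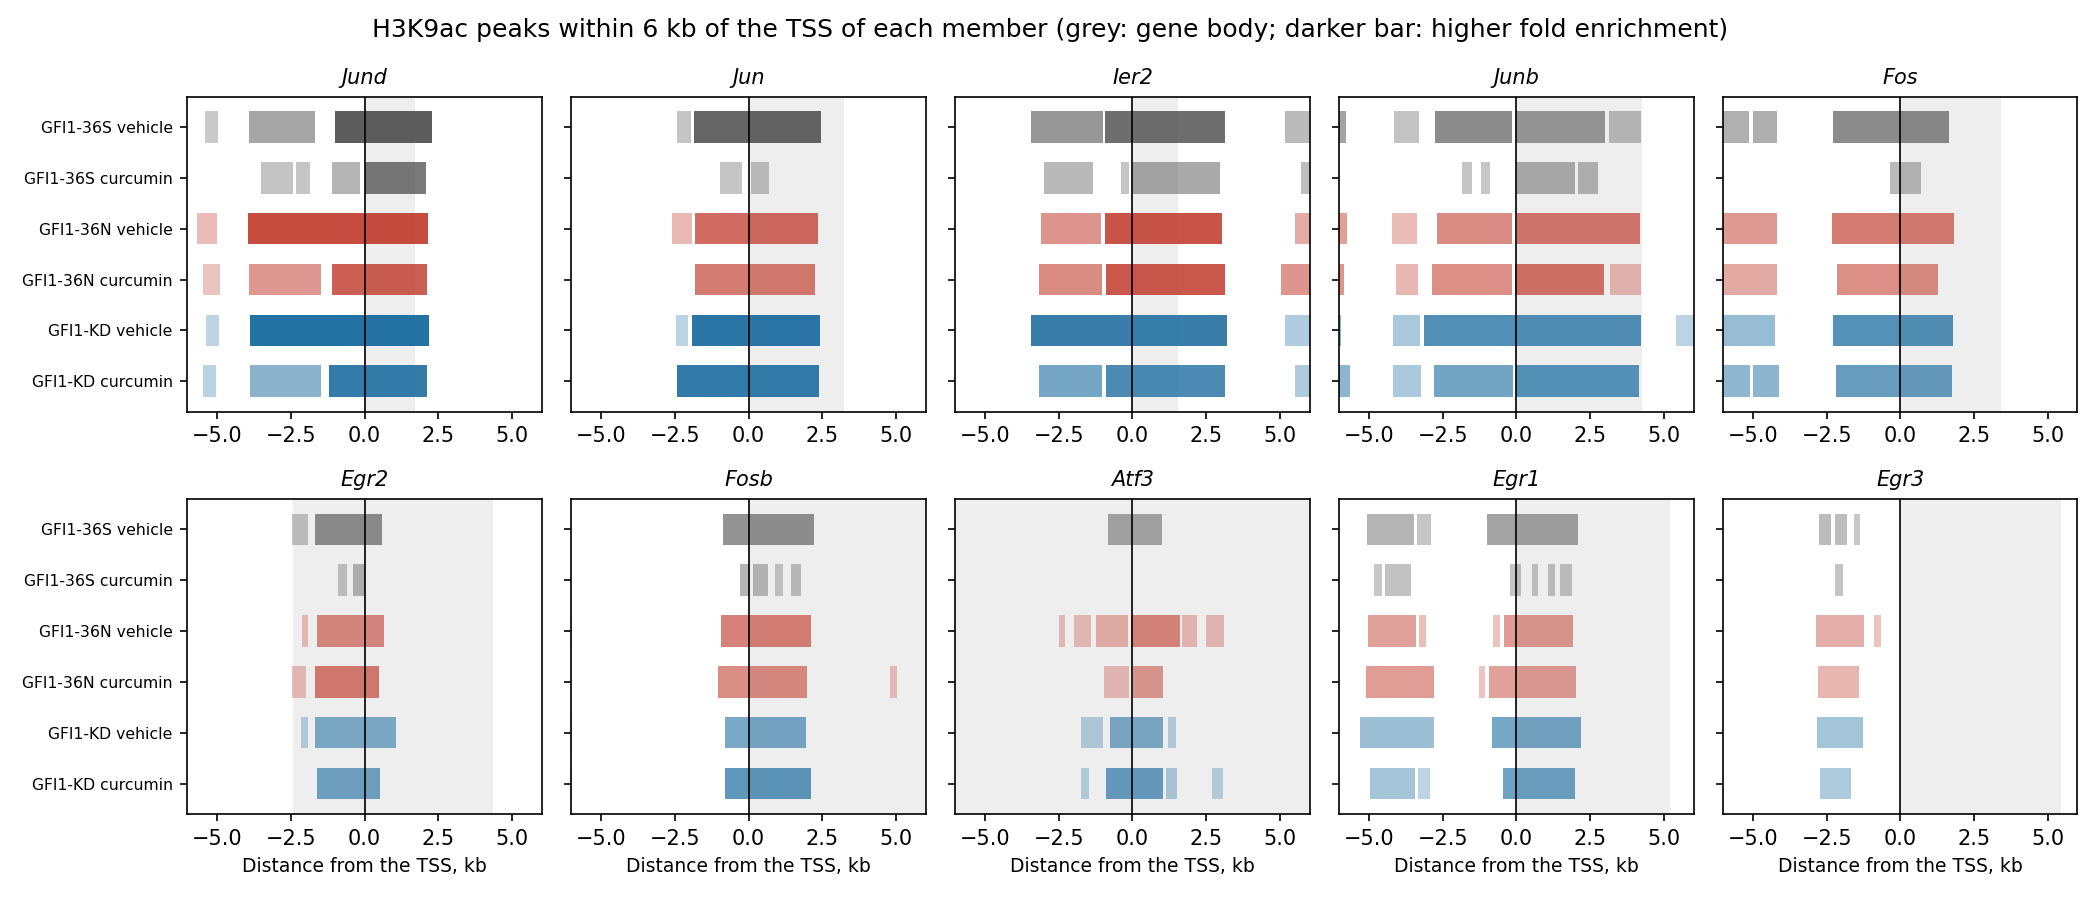
H3K9ac peaks (bars) within 6 kb of the TSS of each member, with distance from the TSS in kb on the horizontal axis and 1 row per library; the gene body is grey and darker bars have a higher fold enrichment. Domains of several kb cover the TSS in most libraries, and in GFI1-36S curcumin they are shorter or broken into pieces.

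H3K9ac covered broad domains at the members. Widths of the strongest promoter peak ran from 1829 to 4287 bp in GFI1-36S vehicle, and in each library other than GFI1-36S curcumin 8 members had a peak of at least 2000 bp, where 24.0% to 40.5% of all promoter peaks were that wide. That share counts every promoter peak and not the strongest of each gene. In those libraries the median width of the strongest peak per gene was 1541 to 1963 bp over all genes and 3031 to 4069 bp over the members. Fos was covered by 1 peak of 3935 bp in GFI1-36S vehicle, 4141 and 3451 bp in GFI1-36N vehicle and curcumin, and 4069 and 3948 bp in GFI1-KD. The domain reached upstream and downstream of the Fos TSS and left the last part of the gene bare. In the GFI1-36S curcumin library the Fos peak was 1054 bp wide. Jun went from 4287 to 622 bp between the GFI1-36S libraries, Fosb from 3109 to 318, Egr1 from 3074 to 371 and Egr2 from 2269 to 405, so that 5 of the 8 members with a peak in both were at most 0.5 times as wide; 34.5% of all genes were, a criterion added after seeing the data. Fosb and Egr1 were each covered by 4 separate promoter peaks in that library, and Jun and Egr2 by 2. In GFI1-36N and GFI1-KD no member had a width that was at most 0.5 times that with vehicle, which 2.5% and 12.4% of all genes had.

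**Figure D4:**
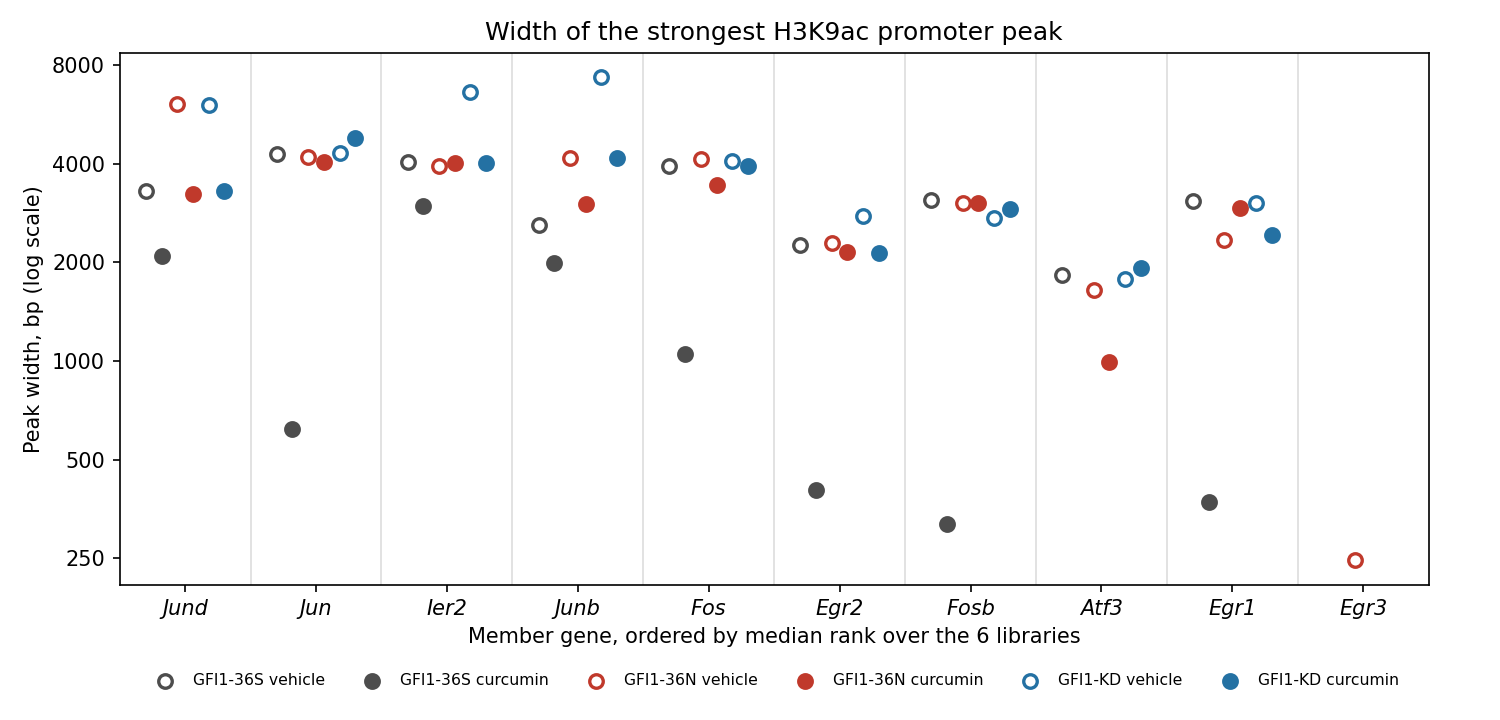
Width of the strongest H3K9ac promoter peak in bp (vertical axis, log scale) for each member in the 6 libraries, open for vehicle and filled for curcumin; libraries without a peak have no point. The GFI1-36S curcumin points of Egr2, Egr1 and Fosb lie at 405, 371 and 318 bp, while the other libraries hold these members between 2143 and 3109 bp.

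The widest domains occurred with vehicle at the 3 members on chromosome 8. Jund was covered by a single peak of 6075 bp in GFI1-36N vehicle and of 6058 bp in GFI1-KD vehicle, against 3227 and 3301 bp with curcumin. Junb spanned 7362 bp in GFI1-KD vehicle and 4167 bp with curcumin, and Ier2 6618 and 4038 bp. In these cases the peak with vehicle had joined an upstream neighbour that was listed as a separate peak in the curcumin library, as the plot of peaks around each TSS shows. The Jund site 2.70 kb upstream and the Ier2 site 2.23 kb upstream are such neighbours. Joined and separate peaks with similar coverage can differ in width, and in GFI1-36N and GFI1-KD the bases covered within 20 kb of all members differed less. They summed to 84351 and 76817 bp in GFI1-36N vehicle and curcumin, and to 82418 and 74416 bp in GFI1-KD. In GFI1-36S they differed more, with 75373 and 30792 bp.

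Atf3 has 2 promoters, 34.7 kb apart, and H3K9ac was found at 1 of them. The downstream TSS at 191183340, which lies within the gene, had a peak within 1 kb in 5 libraries, and the upstream TSS at 191218039 had none in any library. A peak 6.74 kb upstream of the latter was listed in all 6 libraries. Its fold enrichment was 20.2 and 8.37 in GFI1-36S vehicle and curcumin, 30.2 and 29.9 in GFI1-36N, then 24.7 and 24.0 in GFI1-KD. Among all peaks of its list it stood at the percentiles 87.4 and 61.8, 98.0 and 96.0, and 89.2 and 89.5. With curcumin this site differed by −1.98 percentile points in GFI1-36N and 0.33 in GFI1-KD. The Atf3 promoter peak, on the same scale of all peaks, differed by −7.39 and 7.20 points. Within the gene, 4 further sites between 16.2 and 24.2 kb from the upstream TSS were listed in 5 libraries each and were missing in GFI1-36S curcumin.

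**Figure D5:**
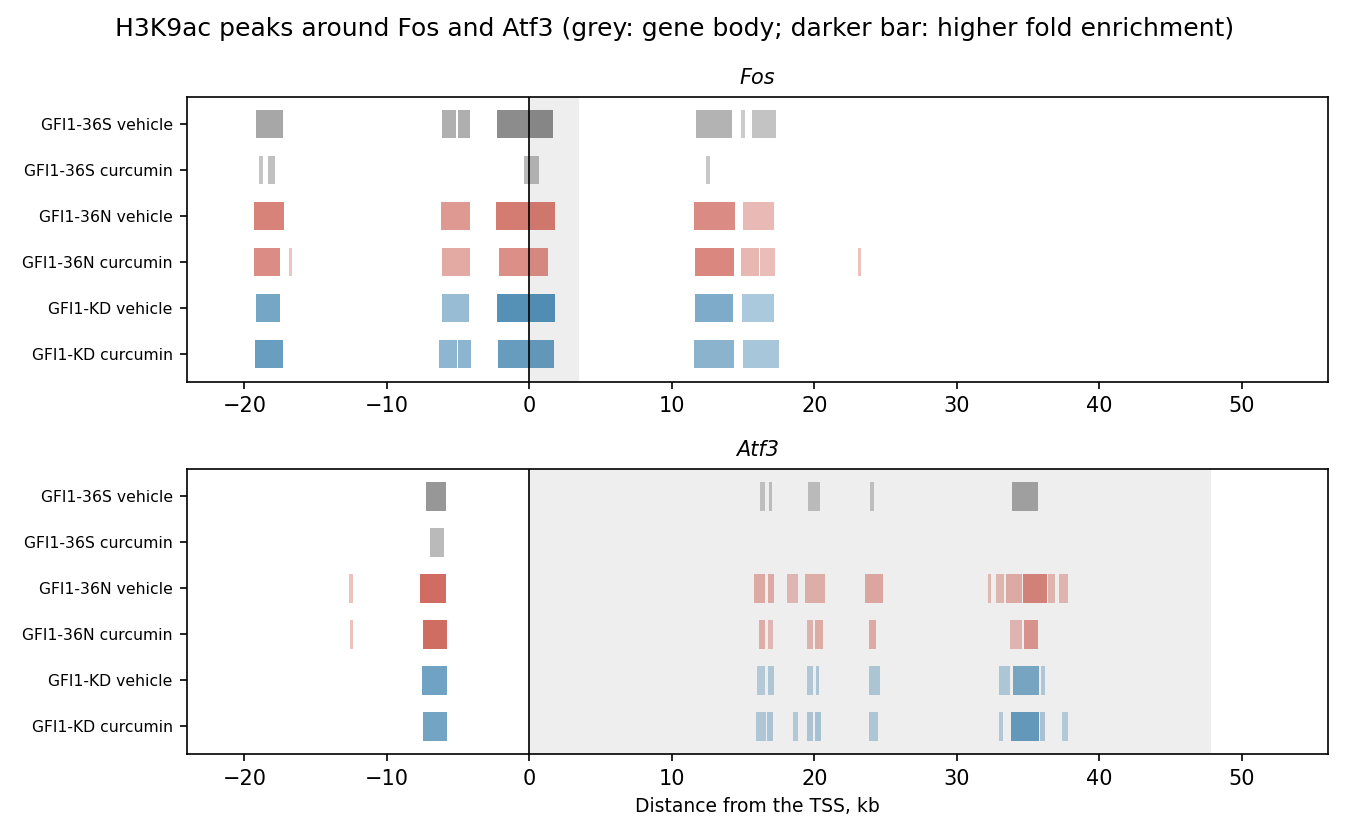
H3K9ac peaks around Fos and Atf3, with the distance from the TSS in kb (for Atf3 the upstream TSS) on the horizontal axis and 1 row per library; the gene body is grey and darker bars have a higher fold enrichment. The Fos sites 18.3 kb upstream and 13 kb downstream and the Atf3 site 6.74 kb upstream appear in every row.

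Fos was flanked by 4 sites that recurred. Those 18.3 kb upstream and 13 kb downstream were listed in all 6 libraries, and those 5.23 kb upstream and 16.2 kb downstream in all but GFI1-36S curcumin. At the site 18.3 kb upstream the percentile among all peaks was 81.5 and 51.8 in GFI1-36S, 93.4 and 87.6 in GFI1-36N, then 87.6 and 92.4 in GFI1-KD, vehicle first. At the site 13 kb downstream it was 76.3 and 11.8, 90.4 and 89.5, and 85.4 and 79.8. Both sites, like the Fos promoter, were lower with curcumin in GFI1-36S. In GFI1-36N they differed by −5.80 and −0.95 percentile points. The Fos promoter peak, placed on the same scale of all peaks after the data had been seen, differed by −8.00 points there and by −30.2 in GFI1-36S. Percentiles among all peaks also depend on the length of a list.

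Around all members, 62 sites outside any promoter of another gene were found within 20 kb, of which 8 were listed in all 6 libraries, 14 in 5 and 22 in 1. The number of peaks at such sites was 41 and 15 in GFI1-36S vehicle and curcumin, 38 and 46 in GFI1-36N, then 34 and 37 in GFI1-KD. With lists of equal length these counts were 19 and 15, 28 and 22, then 21 and 26, so that the GFI1-36S libraries differed less and the direction in GFI1-36N turned. Besides those of Fos and Atf3, the sites in all 6 libraries lay 6.89 kb upstream of Junb, 4.05 kb upstream of Egr1, 2.04 kb upstream of Egr3, 6.14 kb downstream of Ier2 and 8.65 kb downstream of the Fosb TSS. The Egr1 site had fold enrichments of 10.4 and 5.70, 13.7 and 15.1, and 12.3 and 9.37. Of the sites, 10 had a peak in both libraries of the GFI1-36S pair, 28 in both of GFI1-36N and 26 in both of GFI1-KD. In the same order, 24, 9 and 7 had one with vehicle alone and 2, 15 and 6 with curcumin alone. Jun had a single flanking site, 2.26 kb upstream, listed in the 3 vehicle libraries and in none with curcumin. In GFI1-KD curcumin the promoter peak reached into it.

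Other genes of the pathway were taken from 4 lists with 61 genes in all. In each pair 56 of them had a promoter peak, and 52 had one throughout. With curcumin, 23 were lower and 10 higher by at least 10 points in GFI1-36S, 7 lower and 12 higher in GFI1-36N, and 10 lower and 9 higher in GFI1-KD. The medians were −6.19, 1.17 and −0.24 points, near those of all genes at −6.55, 2.83 and −1.39, whereas the medians of the members were −26.5, −8.63 and 4.60.

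The AP-1 family beyond the members differed in both directions. Of 12 AP-1 genes and partners, 10 had a promoter peak in a pair, and 4 were lower and 4 higher by 10 points in GFI1-36S, none lower and 3 higher in GFI1-36N, and 3 lower and 2 higher in GFI1-KD. Fosl2, a FOS relative of long-lived AP-1 dimers, ranked 87.6 and 40.8 in GFI1-36S vehicle and curcumin, and Batf, an AP-1 factor of lymphocytes and dendritic cells, 49.8 and 19.1. Atf7 ranked 45.6 and 85.9 in the same pair and 71.5 and 82.8 in GFI1-36N, and Batf3 5.67 and 34.9 in GFI1-36S. Batf3 was lower in GFI1-KD, from 16.6 to 5.76. Fosl1 ranked 27.0 and 0, 19.8 and 30.3, and 30.9 and 16.9, and Batf2 2.52 and 0, 5.39 and 16.3, and 0 and 10.02, so both were missing in GFI1-36S curcumin. Batf went from 45.4 to 58.2 in GFI1-KD. Atf4 and Mafg had no peak within 1 kb of a protein-coding TSS in any library.

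Nab1 and Nab2, which bind EGR proteins and restrain them, ranked 75.3 and 55.2, and 36.3 and 23.2, in GFI1-36S vehicle and curcumin, and differed by less than 6 points in the other genotypes. Of 11 genes of serum response and JNK/ERK signalling, each had a promoter peak in every library, and 4 were lower and 1 higher by 10 points in GFI1-36S, none lower and 1 higher in GFI1-36N, and 2 lower and none higher in GFI1-KD. Mapk3, which encodes ERK1, ranked 57.4 and 32.4 in GFI1-36S and 75.9 and 54.1 in GFI1-KD. Elk1, the ETS partner of serum response factor, ranked 42.4 and 17.9 in GFI1-36S and 41.0 and 28.0 in GFI1-KD. Mrtfa, an actin-controlled coactivator of that factor, ranked 55.4 and 71.1 in GFI1-36S.

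Of 35 other immediate early genes, 33 had a promoter peak in a pair. In GFI1-36S 13 were lower and 5 higher by 10 points. The GFI1-36N pair had 7 lower and 8 higher, the GFI1-KD pair 5 lower and 7 higher. Klf4, a factor of monocyte differentiation, ranked 44.1 and 0 in GFI1-36S, 82.0 and 57.0 in GFI1-36N, then 58.8 and 90.8 in GFI1-KD, the directions of Fosb and Atf3. Sik1, a kinase that restrains CREB coactivators, ranked 86.9 and 56.3, 93.4 and 68.7, and 77.9 and 92.2. Ier3, a stress-response gene, differed the other way in GFI1-36N and GFI1-KD, with 65.7 and 15.3, 53.5 and 82.8, and 83.3 and 66.4. Trib1, which directs the breakdown of C/EBPα in myeloid cells, ranked 68.3 and 99.1 in GFI1-36S and 69.5 and 37.7 in GFI1-KD. Rhob ranked 97.4 and 43.9 in GFI1-36S, Sgk1 51.0 and 75.4 in GFI1-36N, and in GFI1-KD the ERK phosphatase gene Dusp6 87.1 and 61.4 and the clock gene Per1 66.1 and 94.5. Arc, a synaptic gene, ranked 7.12 and 31.5, 13.8 and 23.3, and 0 and 24.8. Gadd45b and Ccn1 had no promoter peak in any library.

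The genes whose 6 ranks were nearest to those of 3 members, by Euclidean distance over the 6 libraries among 9340 other genes with a promoter peak in all of them, were found by the same rule for each. For Fos they were Nsrp1 (distance 9.53), Pi4k2a (10.2) and Pef1 (10.6). For Jun they were Map3k20 (15.3), Gmfg (15.4) and Ehd4 (18.8), and for Egr1 Acot11 (13.1), Tubb2a (15.6) and Arhgap9 (15.7). Pi4k2a, for example, ranked 75.3, 47.9, 82.7, 57.9, 83.1 and 82.7 in the 6 libraries, and Fos 75.4, 38.7, 85.9, 57.5, 85.5 and 84.0. None of the 9 genes belongs to the lists of immediate early genes used here.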

How the data were processed

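H3K9ac ChIP-seq peak lists of 6 libraries were analysed, 1 per genotype and treatment as the labels give them. An input and a rabbit IgG sample were not used here. The authors trimmed reads with Trim Galore, mapped them to mm10 with BWA-MEM, called peaks per library with MACS2 and removed black list regions. The control of each list and the threshold are not given in the sources used here. The fold enrichment deposited by the authors is the ratio of summit fragments to local background, each with 1 added, and is not normalized between libraries. The −log10 p and −log10 q and the integer score were also deposited by the authors' caller; the score was not used.

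Genes came from the basic set of GENCODE M21 (Python 3.11.15, numpy 2.4.6, scipy 1.17.1, pandas 2.3.3, matplotlib 3.10.9). Promoters reach 1 kb up- and downstream of every protein-coding TSS, and 1 bp of overlap counted. Summit fragments were recovered from fold enrichment and p within 0.002 on the −log10 p scale, with exact 95% intervals that cover counting error only. Summit height is fragments over the genome background of the library. Median fragments over all peaks of a list were 24 to 36. The steps were tested on simulated data.

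Members, gene lists and motifs were chosen with earlier results of these data known, and 2 older symbols were replaced by current ones. Named were all members, the 2 largest rises and falls of at least 10 points per pathway list and pair, pathway genes with a peak in some libraries alone, genes without any, and the 3 nearest profiles of Fos, Jun and Egr1. A gene that this rule named is not reported here. No group has a replicate, so no difference within a genotype was tested. Alternatives tried were a stricter peak threshold (−log10 q at or above 5), equal list lengths of 20354 peaks, other TSS sets, windows and flanks, ranks by −log10 p or among genes, restriction to genes that both libraries list, and exchanged GFI1-36S treatments. DiffBind read counts were not analysed here.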

Additional observations from a re-analysis of the deposited data

Results flagged for a closer look

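The members as a group ranked lower with curcumin in GFI1-36N mice and higher in GFI1-KD mice, with a median rank difference of −8.63 in GFI1-36N and 4.60 in GFI1-KD. Single members with opposite differences of at least 10 points were Fosb (−23.3 and 28.4), Atf3 (−27.1 and 26.2) and Egr1 (−11.3 and 16.3). The summit height intervals of Egr1 in both genotypes and of Fosb in GFI1-36N included 1. None of these intervals included the median over all genes (1.24 times in GFI1-36N and 0.885 in GFI1-KD). These members were picked by rank, and rank and summit height come from the same peaks, so this is no separate support. The median over all genes is not matched for the rank with vehicle. The GFI1-36N difference of Egr1 was under 10 points with TSSs of all biotypes and with a window of 3 kb. Among the pathway genes, Klf4 (−25.1 and 32.0), Sik1 (−24.7 and 14.3) and Dusp2 (−14.9 and 15.1) had the same directions, and Ier3 (29.3 and −16.9), Gadd45a (24.1 and −13.5) and Fosl1 (10.5 and −14.0) had the reverse. With 1 library per group, none of these genotype differences was tested. Dusp2 and Gadd45a were named here because of these values.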

How the results depend on the processing

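The labels carry no replicate numbers and each group has 1 library, so no replicate could be left out. An alternative added after seeing the data paired the libraries by genotype and took the 3 genotypes as repeats of the treatment. The exact two-sided sign-flip test then cannot give a p below 0.25, so it cannot decide for any member. That value was reached by 2 members, Fos (mean −22.2 points) and Ier2 (−9.67), each lower in all 3 pairs. For Ier2 the GFI1-KD difference was −0.044 points. With the GFI1-36S treatments exchanged, neither would be lower in all 3. The median rank difference of the members with curcumin was −31.6 to −25.3 in GFI1-36S under the alternatives other than the exchange, −16.9 to −5.13 in GFI1-36N and 1.76 to 8.85 in GFI1-KD, so each direction was kept. In GFI1-36N it passed 10 points with a stricter −log10 q (5 or more, −13.7), lists of equal length (−16.9), the summit inside the window (−15.9), ranks among genes (−11.1) and a peak in both libraries (−11.3). Under the exchange of the GFI1-36S treatments, the median was 26.5, Fos 36.7, Fosb 21.3, Jun 81.7, Junb 16.6, Egr1 34.5, Egr2 26.5, Ier2 26.1, Atf3 46.6 and the EGR family list 16.6 (main −16.6), and the medians of width (3109 and 838 bp), the covered bases (75373 and 30792 bp) and the flanking peaks (41 and 15) changed places. Flanking peaks were 30 in GFI1-36N curcumin with the stricter −log10 q and 28 with a 10 kb flank. With lists of equal length they were 19 in GFI1-36S vehicle, 22 in GFI1-36N curcumin and 21 in GFI1-KD vehicle. A 50 kb flank gave 72 and 21 in GFI1-36S vehicle and curcumin, 63 and 78 in GFI1-36N, then 63 and 53 in GFI1-KD. With the summit required inside the window, Jund differed by −99.6 in GFI1-36N and −99.3 in GFI1-KD and Junb by −0.54 in GFI1-36S, since summits of these peaks lie more than 1 kb from the TSS in some libraries; Junb also came to −7.45 with ranks by −log10 p. The counts of members with a promoter peak moved by less than 1.5 times under each alternative. Depth limits the weakest peaks, such as that of Egr3 with 19 fragments.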
